A study of Rattus norvegicus with 30 samples.

Results

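The age difference of the male rat liver on a plain diet was read from 16 of the 30 arrays of the study, 8 of old control and 8 of young control animals. The arrays were chosen by their titles, and no measured value entered that choice. Young animals were 3 months and old animals 24 months of age, and all were male Fischer 344 rats, an inbred strain. Both groups ate AIN-93M, a purified maintenance diet, for 2 weeks of modified pair-feeding, and neither was given R-α-lipoic acid (LA). The other 14 arrays came from animals of the same ages whose diet held 0.2% LA (8 young, 6 old, since 2 old LA animals died). RNA of the median liver lobe was hybridised to 1 Affymetrix whole-genome rat array per animal, and the values are GCRMA log2 intensities, in which 1 unit is a factor of 2.

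The male rat liver takes its sex-specific gene programme from pulses of growth hormone, which hold many steroid-, drug- and sulfate-handling enzymes at a male level. Hepatocytes fill most of the organ, make plasma proteins, and break down fatty acids and amino acids in mitochondria and peroxisomes. Macrophages (Kupffer cells), lymphocytes, bile duct cells, stellate cells and endothelium share the tissue, and their RNA is part of every whole-liver sample.

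Differences are old minus young in log2 units ± SE from a limma model of these 2 groups over 10597 genes, each read from 1 probe set, with n = 8 in each group. A gene was called at a Benjamini-Hochberg adjusted p under 0.05, and "rose" and "fell" are used for called genes. P-values rest on the spread between animals. Old control 5 stood apart from the rest: its mean correlation with its own group was 0.879, where the other 7 old arrays had 0.961 to 0.967 and the young arrays 0.990 to 0.991. Array medians lay between 5.20 and 5.37, and at 5.46 on old control 5. List counts of the control-diet age comparison are therefore given over 16 arrays and without old control 5.

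Over all genes, 1775 were called higher in old livers (16.8% of those tested) and 1345 lower (12.7%). Past 2-fold there were 568 higher (5.36%) and 155 lower (1.46%). Without old control 5 the fit called 2102 higher (19.8%) and 1596 lower (15.1%), with 465 (4.39%) and 133 (1.26%) past 2-fold. The 2 fits shared 1700 higher and 1279 lower genes, and 441 higher and 123 lower genes past 2-fold. Of the increases past 2-fold, 127 were outside that class without old control 5, and 8 of those 127 were no longer called at any size. The median difference over all genes was 0.02. Centring each array on its median moved it to -0.07 and gave 1441 higher (13.6%) and 1969 lower (18.6%) calls, so families of small differences are given below with their centred counts too.

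Markers of the labelled tissue were read first. Albumin, Alb, ran from 16.89 over a median of 17.01 to 17.03 in young and from 16.89 over 16.91 to 17.00 in old livers, and did not pass (-0.05 ± 0.05, adjusted p = 0.416 in limma). Of 10 tested hepatocyte markers 2 rose and 2 fell, all by less than 1 unit. Without old control 5 the counts were the same, but 1 of the falls was past 2-fold. The mean of these markers relative to young livers lay between -0.10 and 0.08 on young and between -0.15 and 0.03 on old arrays.

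Markers of several other cell types rose with age. Among T and NK cell markers 12 of 16 rose, among macrophage markers 8 of 11, among bile duct markers 5 of 5 and of neutrophil markers both that were tested, against 1 of 9 for stellate cells, 3 of 11 for endothelium and 2 of 4 for erythroid cells. None of 4 tested B and plasma cell markers rose and 1 fell, Xbp1 (-0.71 ± 0.18), a secretory cell factor that hepatocytes also make. In whole liver RNA more cells of a type and more RNA per cell cannot be told apart. The mean level of the T and NK cell markers, relative to young livers, was uneven: it was 4.50 in old control 5, 3.88 in 7 and 3.04 in 6, between 0.55 and 1.87 in the other 5 old livers, and between -0.25 and 0.15 in young ones. The mean of the macrophage markers ran from -0.39 to 0.38 in young and from 0.02 to 2.12 in old livers, and that of the bile duct markers from -0.20 to 0.24 and from 1.13 to 3.50. Without old control 5 the calls among T and NK cell, macrophage and bile duct markers were 13, 7 and 5. Those among neutrophil, stellate cell, endothelium and erythroid markers were 2, 1, 3 and 3. The 1 stellate cell marker called there was not the 1 called with 16 arrays. Of the B and plasma cell markers 1 rose and 1 fell without old control 5. For T and NK cell, macrophage and bile duct markers the counts without old control 5, 6 and 7 were 11, 3 and 4. That fit called 14.2% of all genes higher and 10.8% lower. Cd3e, a defining T cell chain, did not pass (-0.04 ± 0.16, adjusted p = 0.862), and 5 of the 21 T and NK markers on the array stayed under the filter on low values. Only 2 of the 7 neutrophil markers on the array, 5 of the 8 bile duct markers and 4 of the 8 B and plasma cell markers passed that filter. For the 9 exocrine pancreas genes, 5 were tested and 4 of these were lower, led by the elastase Cela1 (-3.16 ± 0.53), and 3 were lower without old control 5.

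Gene families and pathways were then read as lists, each by the number of members called in either direction among those that passed a filter on low values (above 4 on at least 8 of the 16 arrays), beside the 16.8% and 12.7% of all genes. Of 74 lists with at least 4 tested members, 22 had a share of higher calls at least 1.5 times that of all genes and 27 a share of lower calls that high, while 26 had neither. Some genes belong to several lists, so these lists are not independent of each other. Without old control 5, 20 of the 22 and 26 of the 27 stayed at or above 1.5 times their background. The apoptosis and BCL2 list fell below it in both directions, and the phospholipid and triglyceride list fell below it for higher calls. Above it only without old control 5 were UDP-glucuronosyltransferases and sphingolipid genes (higher) and carboxylesterases (lower). In the steroid dehydrogenase, aldo-keto reductase, organic ion transporter and glutathione lists 1 tested member each (Hsd3b5, Akr1b7, Slc22a25 and Gpx2) passed the filter through 1 group alone, so that its groups had to differ. For Akr1c3, Gsta3, Abcg8, Cldn7 and Slc22a8, 1 group was enough to pass and few arrays of the other were above 4. The filter therefore favoured the separation of these genes too.

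**Figure D1:**
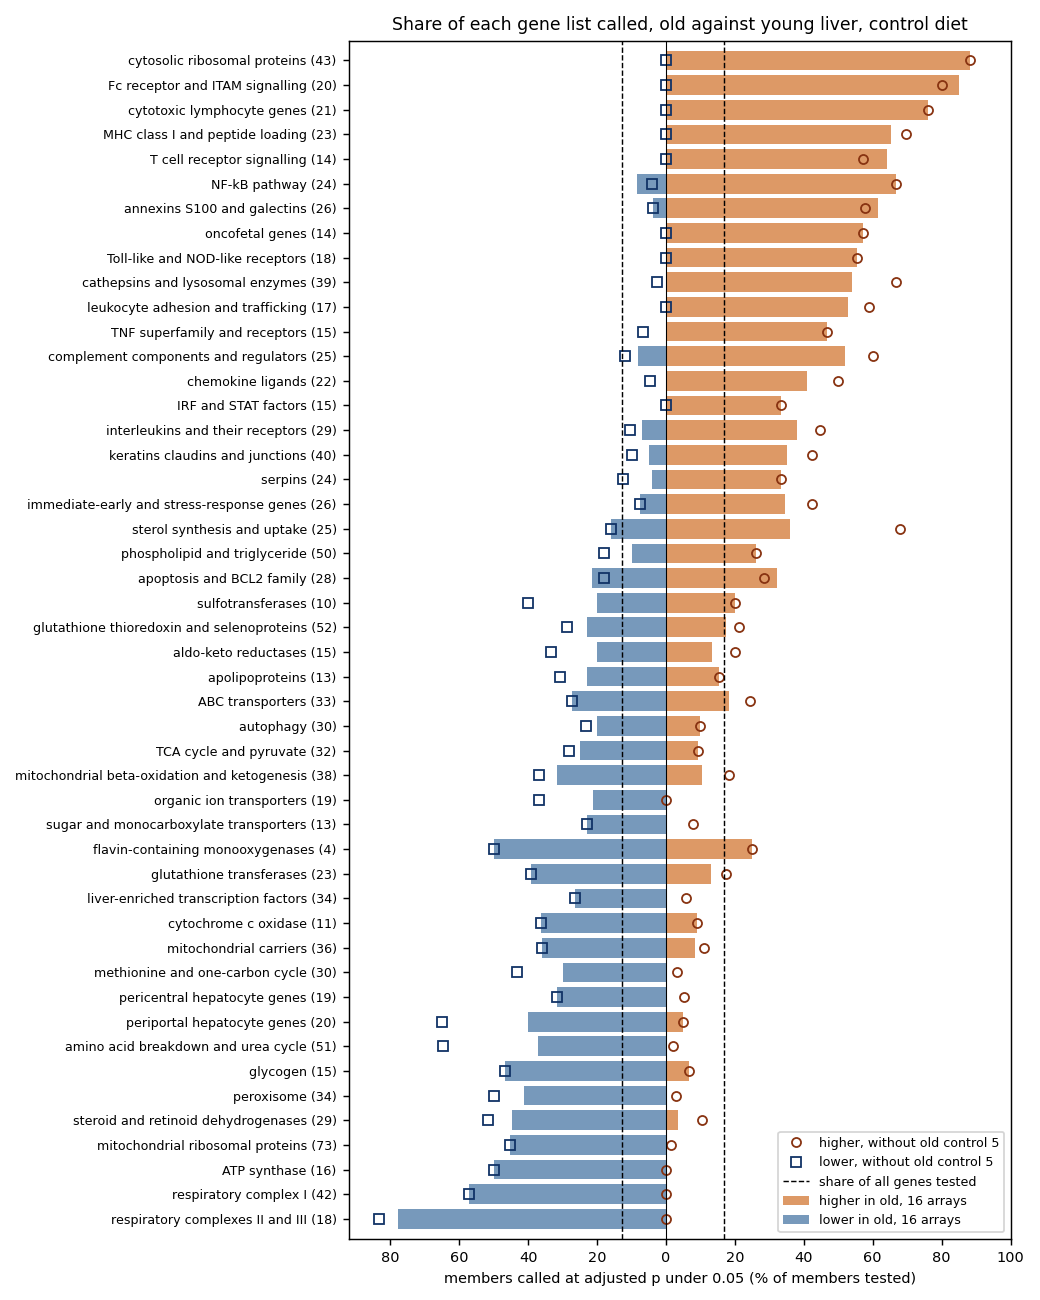
Share of the tested members that were called higher (to the right) or lower (to the left) in old livers, in percent, for each gene list at 1.5 times the background or more in either direction, with the number of tested members in brackets. Bars show the fit of 16 arrays, open symbols the fit without old control 5, and dashed lines the 16.8% and 12.7% of all genes. Cytosolic ribosomal proteins lead on the right with 38 of 43, and respiratory complexes II and III on the left with 14 of 18.

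The growth hormone and IGF axis itself moved little as a list: 4 of 26 members rose and 2 fell (4 and 3 without old control 5), which is near the background. Single members differed widely. Cux2, a repressor in the female-type liver programme, ran from 3.39 over a median of 5.06 to 6.23 in young and from 6.22 over 8.97 to 9.38 in old livers. It rose by 3.61 ± 0.43 (adjusted p = 2.38e-05), and the groups met only at old control 5, the lowest old value. Bcl6, a repressor favoured by male-type growth hormone pulses, ran from 8.37 over 9.55 to 11.68 in young and from 6.57 over 7.54 to 9.11 in old livers, a fall of 2.02 ± 0.47 (adjusted p = 0.00541) with overlapping groups. Igfbp2, a carrier of IGFs, lay at 6.15 to 7.73 (median 6.84) in young and 7.75 to 11.37 (median 10.19) in old livers and rose by 3.18 ± 0.42, its lowest old value again being old control 5.

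The hormone Igf1 fell slightly, by 0.31 ± 0.08 (adjusted p = 0.00914), with all 8 old values (14.47 to 14.97) under all young ones (14.98 to 15.26), although only 1 of its 3 probe sets was called. The receptor Ghr (-0.37 ± 0.16, adjusted p = 0.0889), the feedback inhibitors Socs2 (-0.33 ± 0.46, adjusted p = 0.607) and Cish (-0.67 ± 0.55, adjusted p = 0.358), the signal transducer Stat5b (-0.14 ± 0.17, adjusted p = 0.538) and the IGF carrier subunit Igfals (-0.40 ± 0.48, adjusted p = 0.539) did not pass. Igfals on old control 5 was 8.10, where the young values began at 11.67.

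Steroid and retinoid dehydrogenases were lower: 13 of 29 fell and 1 rose (15 and 3 without old control 5), with a median of -0.48 (-0.27 without that array). Hsd3b5, a steroid-reducing enzyme of the male liver, went from 12.49 to 13.13 in young to 2.06 to 2.59 in old livers, near the floor of the array, which is a level at least 449-fold lower. The family also held changes of moderate size on bright genes. Hsd11b1, which regenerates active glucocorticoid, lay at 14.75 to 14.97 (median 14.83) in young and 13.14 to 14.07 (median 13.95) in old livers and fell by 1.12 ± 0.13 (adjusted p = 2.41e-05). Hsd17b10, a mitochondrial dehydrogenase of steroids and branched fatty acids, lay at 13.90 to 14.15 in young and 12.76 to 13.41 in old livers and fell by 0.74 ± 0.09. Neither gene's groups overlapped, and both stayed called without old control 5. Hsd17b6, a retinol and androgen dehydrogenase, was the 1 member that rose (0.45 ± 0.12), and without old control 5 its old and young values no longer overlapped.

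Conjugation and reduction families split, with members moving far in both directions. Among aldo-keto reductases 2 of 15 rose and 3 fell (3 and 5 without old control 5), from Akr1b7 (at least 519-fold higher) to Akr1c3 (at least 49.4-fold lower). Akr1b7 on old control 5 was 9.34, while its old median was 13.53. Among sulfotransferases 2 of 10 rose and 2 fell (2 and 4 without old control 5). Sult1e1, the oestrogen sulfotransferase, dropped from 15.27 to 15.66 in young to 4.16 to 7.60 in old livers, and Sult2a2, a hydroxysteroid sulfotransferase, climbed from a median of 5.56 to one of 10.73, with its lowest old value (8.73) above its highest young one (6.06). Probe sets of near-identical paralogs such as the Sult2a and Gsta genes may share signal, so the identity of the changed copy is uncertain.

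Glutathione transferases were lower in 9 of 23 cases and higher in 3 (9 and 4 without old control 5). The membrane-bound Mgst3 ran from 12.92 over 13.07 to 13.30 in young and from 10.76 over 12.19 to 12.47 in old livers, a fall of 1.05 ± 0.20 (adjusted p = 0.00129) that was -0.87 without old control 5. The risers were Gsta3, at least 35.1-fold higher, Gsta1, and the pi-class Gstp1, scarce in young hepatocytes, which ran from 9.32 over 9.67 to 9.87 in young and from 10.04 over 10.88 to 13.44 in old livers (1.57 ± 0.37, adjusted p = 0.00568). The highest Gstp1 value was that of old control 5. Of 4 flavin-containing monooxygenases, which oxidise amines and sulfides, 2 fell and 1 rose with and without old control 5: Fmo1 (-2.43 ± 0.59) and Fmo4 (-1.44 ± 0.37) fell and Fmo5 rose (1.41 ± 0.38). In each of these 3 genes old control 5 held the lowest old value.

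Uptake and export genes changed by member. Of 19 organic ion transporters 4 fell and none rose (7 and 0 without old control 5), with a median of -0.54 (-0.27 without that array). The largest of these falls was in Slc22a8, which takes up organic anions, to a level at least 172-fold lower. In the ABC family, which exports lipids and conjugates, 9 of 33 fell and 6 rose (9 and 8 without old control 5). The sterol half-transporters Abcg5 and Abcg8 fell together: Abcg5 lay at 7.37 to 9.53 (median 8.99) in young and 2.73 to 6.29 (median 4.41) in old livers, a fall of 4.49 ± 0.45 (adjusted p = 3.5e-06), and Abcg8 was at least 3.13-fold lower. Abcc3, the basolateral exporter of conjugates, went the other way, from 3.46 to 5.21 (median 4.13) to 6.50 to 10.76 (median 8.51), a rise of 4.31 ± 0.48. No old value of these 3 genes overlapped a young one, although the filter favoured this for Abcg8.

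The male- and female-type P450 genes Cyp2c11 (-7.66 ± 0.69) and Cyp2c12 (7.48 ± 0.28) moved with these families. Outside all lists, called genes with large differences included Nox4, an NADPH oxidase (7.41 to 8.80 in young and 2.50 to 3.75 in old livers, so kept by the filter through young livers alone, which fixed its separation), Trim24, a nuclear receptor cofactor (4.50 ± 0.42), and Prss8, a membrane-anchored serine protease (4.06 ± 0.23).

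**Figure D2:**
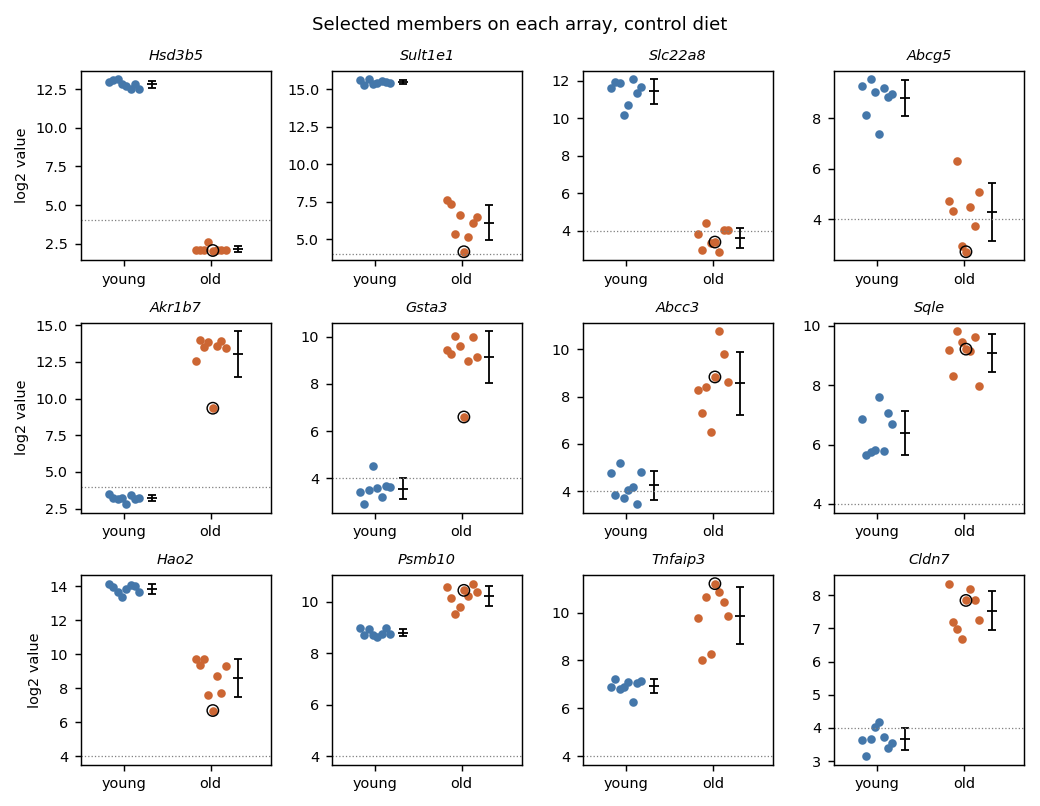
Log2 values of 12 genes on each control-diet array (blue young, orange old, n = 8 each), with mean and SD beside the points and old control 5 circled; each panel has its own scale and the dotted line marks the log2 value of 4 used as floor. Old and young points are apart in all 12, and old control 5 is the lowest old array for Akr1b7 (9.34) and Gsta3 (6.60). The filter fixed the separation of Hsd3b5 and Akr1b7 and favoured that of Slc22a8, Gsta3 and Cldn7.

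The 2 ribosomes of the cell differed in direction. Cytosolic ribosomal proteins (43 of 48 on the array passed the filter on low values), the building blocks of the ribosome that translates nuclear messages, rose in 38 of 43 cases and fell in none, by 0.19 to 0.58, with a median of 0.35. In 25 of the 43 every old value lay above every young one, where 4.71% of all genes did so. The counts were the same without old control 5 (38 and 0, median 0.29), and 32 rose with centred arrays. Rpl23a ran from 13.72 over 13.87 to 14.06 in young and from 14.23 over 14.40 to 14.88 in old livers, a rise of 0.58 ± 0.09 (adjusted p = 0.000225). Rpl5 and Rps3a rose by 0.46 ± 0.07 each, and neither overlapped between groups. The mean of the family per array was between -0.06 and 0.09 in young and between 0.17 and 0.73 in old livers, with old control 5 highest.

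Mitochondrial ribosomal proteins, which serve the organelle's own translation, fell in 33 of 73 cases and rose in none, by 0.21 to 0.80, with a median of -0.23. Without old control 5, 33 fell and 1 rose, with a median of -0.18. With centred arrays 42 fell. Mrpl14 lay at 9.74 to 10.20 (median 9.91) in young and at 8.64 to 9.44 (median 9.21) in old livers, a fall of 0.80 ± 0.11 (adjusted p = 0.000111). Mrps34 fell by 0.40 ± 0.07, with 8 old values under all young ones. In 13 of the 73 genes the old values all lay under the young ones, against 4.26% of all genes. Translation factors (13 of 59 higher and 6 lower, 16 and 9 without old control 5) and aminoacyl-tRNA synthetases (2 of 29 in each direction, 4 and 3 without old control 5) stood near or below the background.

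**Figure D3:**
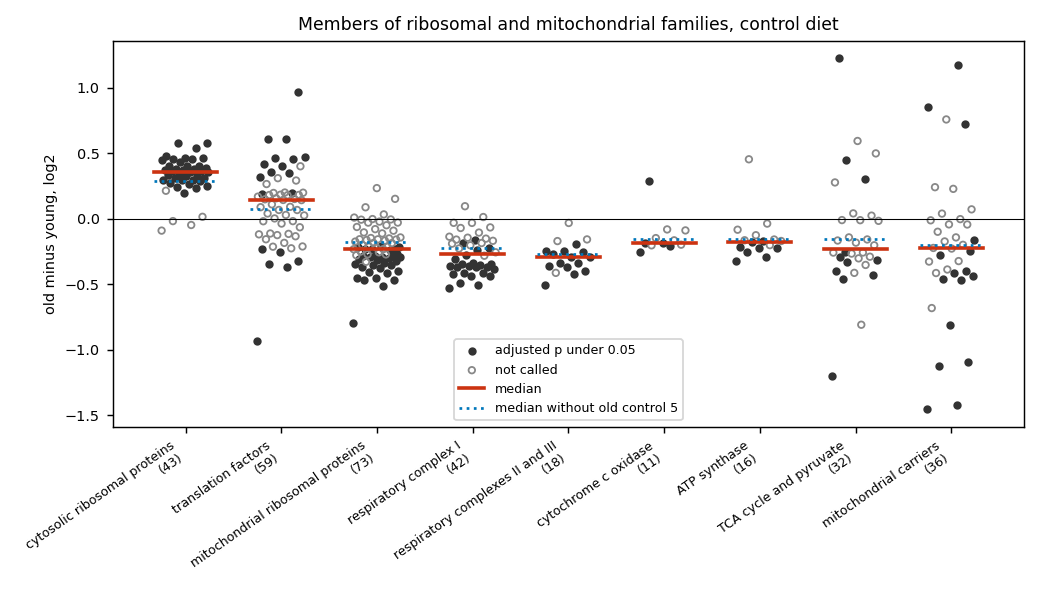
Old minus young difference in log2 units of each tested member of 9 families (number tested in brackets), filled where the adjusted p was under 0.05, with the median over 16 arrays (red) and without old control 5 (dotted). Cytosolic ribosomal proteins lie around a median of 0.35, and mitochondrial ribosomal proteins around -0.23.

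Many genes of the respiratory chain were lower by small amounts. Complex I, which takes electrons from NADH, had 24 of 42 members lower and none higher (24 and 0 without old control 5), by 0.16 to 0.53. Complexes II and III had 14 of 18 lower and none higher (15 and 0), by 0.19 to 0.51, and all 18 differences were negative. Cytochrome c oxidase had 4 of 11 lower and 1 higher (4 and 1), and ATP synthase 8 of 16 lower and none higher (8 and 0). Centring raised the lower counts of these families to 28, 15, 7 and 10.

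Ndufb3, a complex I subunit, lay at 13.10 to 13.28 (median 13.18) in young and 12.29 to 12.87 (median 12.73) in old livers and fell by 0.50 ± 0.08 (adjusted p = 0.000449). Uqcrc2, a core protein of complex III, lay at 12.58 to 12.81 (median 12.67) in young and 11.58 to 12.52 (median 12.25) in old livers and fell by 0.51 ± 0.11 (adjusted p = 0.00339). Cyc1, the haem subunit of complex III, fell by 0.37 ± 0.07. None of the 3 overlapped between groups. Atp5pb, a stalk subunit of ATP synthase, fell by 0.22 ± 0.05, and Cox7a2l, a factor of supercomplex assembly, was the 1 oxidase-list member that rose (0.29 ± 0.07).

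Carriers that bring substrates into the mitochondrion were called lower more often than higher. Of 36 mitochondrial carriers 13 fell and 3 rose (13 and 4 without old control 5). Slc25a11, the oxoglutarate carrier, lay at 11.05 to 11.25 (median 11.17) in young and 10.54 to 10.94 (median 10.64) in old livers and fell by 0.47 ± 0.07 (adjusted p = 0.000225). Slc25a21, which carries oxodicarboxylates, fell by 1.12 ± 0.16, and neither gene overlapped between groups. In the TCA cycle and pyruvate list 8 of 32 fell and 3 rose (9 and 3), among them the succinyl-CoA ligase subunit Sucla2 (-0.46 ± 0.12) and the isocitrate dehydrogenase Idh2 (-0.43 ± 0.11). The riser Pdk4, a kinase that shuts off pyruvate dehydrogenase, ran from 10.53 over 11.20 to 12.12 in young and from 11.80 over 12.51 to 13.87 in old livers (1.22 ± 0.28, adjusted p = 0.00491), with overlapping groups and old control 5 highest.

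Peroxisomal genes, which shorten very long and branched fatty acids and handle hydrogen peroxide, fell in 14 of 34 cases and rose in none (17 and 1 without old control 5). With 16 arrays 32 differences were negative, and the median was -0.31 (-0.22 without old control 5). Hao2, a hydroxyacid oxidase, ran from 13.34 over 13.90 to 14.15 in young and from 6.68 over 8.99 to 9.71 in old livers and fell by 5.24 ± 0.38 (adjusted p = 8.29e-08). Phyh, which starts the breakdown of phytanic acid, had medians of 16.07 in young and 15.42 in old livers, with a highest old value of 15.91, a fall of 0.57 ± 0.10. Both pairs of groups were apart. Old control 5 was lowest for Hao2 and highest among old livers for Phyh.

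Mitochondrial β-oxidation and ketogenesis had 12 of 38 members lower and 4 higher (14 and 7 without old control 5). Acat1, a thiolase of ketone and isoleucine metabolism, lay at 13.52 to 13.76 (median 13.66) in young and 12.48 to 13.23 (median 13.13) in old livers and fell by 0.63 ± 0.10 (adjusted p = 0.000318). Acot12, an acetyl-CoA thioesterase, fell by 1.34 ± 0.24, and Ucp2, an uncoupling protein also found in macrophages, rose by 1.73 ± 0.45 with its highest value, 11.64, in old control 5. In the phospholipid and triglyceride list 13 of 50 rose and 5 fell (13 and 9 without old control 5), and in the sphingolipid list 6 of 24 rose and 4 fell (8 and 4). The fatty acid uptake receptor Cd36 rose by 2.63 ± 0.29, from 9.09 to 10.69 in young to 11.46 to 13.54 in old livers, and the lipid droplet coat protein Plin3 by 1.55 ± 0.13, with no overlap for either. Cers6, a ceramide synthase, lay at 9.39 to 10.15 (median 9.72) in young and 7.41 to 7.86 (median 7.56) in old livers and fell by 2.18 ± 0.12.

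Amino acid breakdown and the urea cycle had 19 of 51 members lower and none higher, and 33 lower and 1 higher without old control 5, with 49 negative differences and a median of -0.42. Gpt, the alanine aminotransferase, ran from 12.30 over 12.84 to 13.10 in young and from 10.63 over 11.60 to 11.99 in old livers, a fall of 1.32 ± 0.20 (adjusted p = 0.000208). The mitochondrial aspartate aminotransferase Got2 fell by 0.34 ± 0.07. Cps1, the entry enzyme of the urea cycle, did not pass (-0.09 ± 0.06, adjusted p = 0.246). Sds, a serine dehydratase induced by fasting hormones, was widely scattered, at 11.28 to 14.02 in young and 3.95 to 12.19 in old livers (-3.98 ± 0.91), and on the LA diet it showed no age difference past the test (0.11, adjusted p = 0.949).

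In the methionine and one-carbon list 9 of 30 fell and none rose (13 and 1 without old control 5). Among those that fell were methyltransferases: Inmt, of indolethylamine, lay at 10.61 to 12.35 in young and 3.45 to 7.78 in old livers, and Nnmt, of nicotinamide, lay at 11.60 to 12.61 (median 12.01) in young and 10.24 to 11.20 (median 10.76) in old livers, a fall of 1.24 ± 0.17 (adjusted p = 7.05e-05). Glycogen genes fell in 7 of 15 cases and rose in 1, with the same counts without old control 5, 4 lower without old control 6 or young control 1, 5 or 7, and 3 lower without old control 5, 6 and 7. The largest fall in this list was that of Slc37a4, the glucose-6-phosphate carrier (-0.76 ± 0.17).

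Genes of both lobule zones were lower. Pericentral genes fell in 6 of 19 cases and rose in none (6 and 1 without old control 5), and periportal genes fell in 8 of 20 and rose in 1 (13 and 1). The periportal count moved from 3 to 13 as single arrays were left out. In the pericentral list Gulo, the last enzyme of vitamin C synthesis, lay at 13.20 to 13.62 in young and 12.01 to 13.03 in old livers and fell by 0.98 ± 0.12, with both of its probe sets called, and Oat, the ornithine aminotransferase, fell by 0.91 ± 0.20. The periportal gluconeogenic Pck1 fell by 0.58 ± 0.12, while Cdh1, the epithelial cadherin, rose by 1.62 ± 0.18 from 10.14 to 10.89 in young to 11.24 to 12.84 in old livers. The pericentral markers Glul (-0.04 ± 0.13, adjusted p = 0.847) and Cyp2e1 (-0.34 ± 0.30, adjusted p = 0.407) did not pass.

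Of 34 liver-enriched transcription factors 9 fell and none rose (9 and 2 without old control 5). The core factors Hnf4a (0.03 ± 0.17, adjusted p = 0.897) and Cebpa (-0.37 ± 0.37, adjusted p = 0.456) did not pass, and Cebpa without old control 5 differed by 0.00. The clock-output factor Tef fell by 1.61 ± 0.32 with no overlap, and the xenobiotic receptor Nr1i3 (CAR) fell by 1.13 ± 0.28.

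The count for sterol synthesis and uptake depended on old control 5. With 16 arrays 9 of 25 rose and 4 fell, and without old control 5, 17 rose and 4 fell, with medians of 0.70 and 0.88. Old control 5 had a mean of -0.79 for the list where the old median was 0.29. Sqle, which oxidises squalene, ran from 5.66 over 6.25 to 7.60 in young and from 7.98 over 9.19 to 9.81 in old livers, a rise of 2.69 ± 0.32 (adjusted p = 2.63e-05) with no overlap. Idi1, an isoprenoid isomerase, rose by 1.60 ± 0.32, and its 1 old value inside the young range, 10.44, was that of old control 5. The last-step reductase Dhcr7 rose by 0.93 ± 0.20 with overlapping groups. The fallers included Abcg5 and Abcg8.

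Antioxidant genes changed in both directions. Of 52 glutathione, thioredoxin and selenoprotein genes 12 fell and 9 rose (15 and 11 without old control 5). Among the fallers were 2 genes of selenium use: Msrb1, a methionine sulfoxide reductase, lay at 11.94 to 12.38 (median 12.22) in young and 10.80 to 11.57 (median 11.26) in old livers (-0.98 ± 0.10, adjusted p = 5.55e-06), and Sephs2, which makes selenophosphate, fell by 0.70 ± 0.09. Among the risers were Nqo1, a quinone reductase (2.64 ± 0.29), the glutathione synthetase Gss (0.54 ± 0.07) and the epithelial peroxidase Gpx2 (at least 8.16-fold higher). Gpx2 was under 4 on all young arrays, so its separation was fixed by the filter, and none of the other 4 overlapped between groups.

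Complement and serpin genes were called higher more often than lower. Of 25 complement components and regulators 13 rose and 2 fell (15 and 3 without old control 5), with 10 higher in centred arrays. C9, of the membrane attack complex, lay at 14.47 to 14.68 (median 14.56) in young and 14.96 to 15.47 (median 15.05) in old livers and rose by 0.57 ± 0.08 (adjusted p = 7.41e-05). C5 rose by 1.02 ± 0.12 and the protease C1s by 0.77 ± 0.10, and none of the 3 overlapped. In all 3, old control 5 was the lowest old value. Of 24 serpins 8 rose and 1 fell (8 and 3), and 5 rose with centred arrays. The serpin list as a whole did not lean higher: its median was -0.02 (0.09 without old control 5), with 13 differences negative.

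The series title names a necroinflammatory phenotype, so the immune lists are no independent choice, and T and NK cell and macrophage markers, given above, rose in the same comparison. The part of these cells in the immune lists was not tested. MHC class I and peptide loading, used by nearly every nucleated cell, had 15 of 23 members higher and none lower (16 and 0 without old control 5). Its mean level per array was 0.31 to 0.88 in old against -0.11 to 0.16 in young livers, with no overlap. The 3 immunoproteasome subunits Psmb8, Psmb9 and Psmb10, which replace standard subunits under interferon, were the 3 higher calls among 37 proteasome genes, beside 3 lower ones (3 and 4 without old control 5). Psmb10 lay at 8.63 to 8.99 (median 8.73) in young and 9.51 to 10.70 (median 10.30) in old livers and rose by 1.42 ± 0.14 (adjusted p = 4.24e-06). Psmb9 rose by 1.56 ± 0.18 and Psmb8 by 0.83 ± 0.13, whose only old value in the young range was that of old control 5. Tap1, a peptide pump, rose by 0.99 ± 0.16, and the light chain B2m did not pass (0.15 ± 0.06, adjusted p = 0.0514).

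Among 15 interferon regulatory and STAT factors 5 rose and none fell, the same counts without old control 5. Irf1 ran from 7.82 over 8.25 to 8.66 in young and from 9.10 over 9.91 to 10.65 in old livers and rose by 1.67 ± 0.18 (adjusted p = 1.23e-05), and Stat3, the transducer of IL-6, rose by 0.93 ± 0.16. Because such factors bind interferon-stimulated response elements, RefSeq promoters (GRCr8, 250 bases before to 50 after the gene start) were searched on both strands for a pair of GAAA half-sites with any 2 bases between them (10 bases in all). It was found in 9 of the 19 class I and peptide loading promoters given there, in 6 of the 13 whose genes rose, and in 3.77% of 27457 promoters. The NF-kB list was searched in the same way for GGGA, any base, then TTTCC, which was found in 5 of 19 promoters, in 4 of the 12 of genes that rose, and in 0.371% of all. In all 7 motifs were searched, in 10 pairs of a motif and a list, and several lists held few matches. The NF-kB motif was in 1 of 17 chemokine ligand promoters. The sterol response element in its classic 10-base form was in 0 of 21 sterol promoters (0.102% of all). It was in 0% of the promoters of the 8887 tested genes that had one, so this count could only be 0. TTTCCCGC, bound by E2F factors, was in 3 of 28 DNA replication promoters and in 0 of the 3 of genes that rose (1.03% of all and 2.08% of those of tested genes). TTCNNNGAA, bound by STAT factors, was in 1 of 23 growth hormone axis promoters and in 4 of 14 of interferon regulatory and STAT factors (8.68% of all). TGACNNNGC, bound by Nrf2, was in 6 of 19 glutathione transferase promoters and in 7 of 43 of the glutathione, thioredoxin and selenoprotein list (12.2% of all promoters and 14.7% of those of tested genes), and TTTGAA, an element of mitotic genes, in 17 of 24 mitosis promoters (18.1% of all). A match is a description of the letters and not a binding site. The 150 bases before the start of 4 genes that rose are shown, 2 chosen for the first motif and 2 for the NF-kB motif, since these members carry it close to the start. Capitals mark every match of either of these 2 motifs.
Psmb10: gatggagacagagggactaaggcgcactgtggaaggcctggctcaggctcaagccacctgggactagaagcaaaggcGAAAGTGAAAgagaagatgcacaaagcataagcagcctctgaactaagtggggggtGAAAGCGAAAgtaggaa
Tap1: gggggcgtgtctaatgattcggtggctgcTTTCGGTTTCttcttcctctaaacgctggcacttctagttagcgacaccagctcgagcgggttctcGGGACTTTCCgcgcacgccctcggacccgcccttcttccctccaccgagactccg
Tnfaip3: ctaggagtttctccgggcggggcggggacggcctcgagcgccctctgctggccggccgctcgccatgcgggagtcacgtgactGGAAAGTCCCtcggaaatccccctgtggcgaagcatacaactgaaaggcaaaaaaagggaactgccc
Nfkb2: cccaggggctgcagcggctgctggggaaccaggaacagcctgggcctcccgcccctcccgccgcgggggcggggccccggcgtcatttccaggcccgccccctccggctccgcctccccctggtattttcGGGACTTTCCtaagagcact
The matches begin 73 and 17 bases before the start in Psmb10, 121 (interferon element) and 55 (NF-kB motif) in Tap1, 67 in Tnfaip3 and 20 in Nfkb2. The windows are chr19:50743293-50743442, chr20:4668544-4668693, chr1:15543980-15544129 and chr1:255108224-255108373, the first 3 on the minus and the last on the plus strand.

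The NF-kB pathway had 16 of 24 members higher and 2 lower (16 and 1 without old control 5). Tnfaip3, an inhibitor that the NF-kB pathway itself induces, lay at 6.28 to 7.23 (median 6.97) in young and 8.00 to 11.21 (median 10.14) in old livers and rose by 2.95 ± 0.40 (adjusted p = 8.14e-05). The subunit gene Nfkb2 had medians of 6.60 in young and 8.15 in old livers, with old values from 7.08 to 9.31, and rose by 1.42 ± 0.29, and neither gene overlapped. Chuk, the kinase IKKα, fell by 0.45 ± 0.08. Of 18 Toll-like and NOD-like receptor genes 10 rose and none fell (10 and 0), led by Lbp, the carrier of bacterial lipopolysaccharide (2.47 ± 0.24). Of 26 immediate-early and stress-response genes 9 rose and 2 fell (11 and 2), among them Jund (1.16 ± 0.18) and Egr1 (2.97 ± 0.63), which overlapped between groups.

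Genes of leukocytes themselves were higher. The lists below share members with the T and NK cell markers, Gzmk and Cd8a among them, so their counts are not separate results. Of 21 cytotoxic lymphocyte genes 16 rose, with a list median of 2.63, as did 9 of 14 of T cell receptor signalling, 17 of 20 of Fc receptor and ITAM signalling and 9 of 17 of leukocyte adhesion, with none lower. Without old control 5 these counts were 16, 8, 16 and 10, and without old control 5, 6 and 7 they were 14, 8, 13 and 9. The median of the cytotoxic list was 2.07 without old control 5. Gzmk, a granzyme, lay at 4.85 to 5.26 (median 4.93) in young and 6.19 to 13.99 (median 8.92) in old livers and rose by 4.70 ± 0.83 (adjusted p = 0.000824), with old control 5 highest and the next old value at 12.43. Cd8a rose by 4.14 ± 0.54 and Coro1a, an actin regulator of leukocytes, by 3.24 ± 0.53. All 8 old values of these 3 genes exceeded the young ones, and old control 8 had the lowest of them.

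Among signals between cells, chemokine ligands rose in 9 of 22 cases and fell in none (11 and 1 without old control 5), interleukins and receptors rose in 11 of 29 and fell in 2 (13 and 3), and TNF family genes rose in 7 of 15 and fell in none (7 and 1). Of 8 chemokine receptors none was called higher and 1 fell, Cxcr5 (-0.37 ± 0.11, adjusted p = 0.017), with the same counts without old control 5. The list median was 0.16 (0.07 without that array). Cxcl14 lay at 4.39 to 6.16 (median 5.44) in young and 7.01 to 9.91 (median 8.90) in old livers and rose by 3.28 ± 0.42 (adjusted p = 5.53e-05). Ccl5, a T cell chemokine, rose by 3.49 ± 0.71, with overlapping groups and a peak of 14.99 in old control 5.

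**Figure D4:**
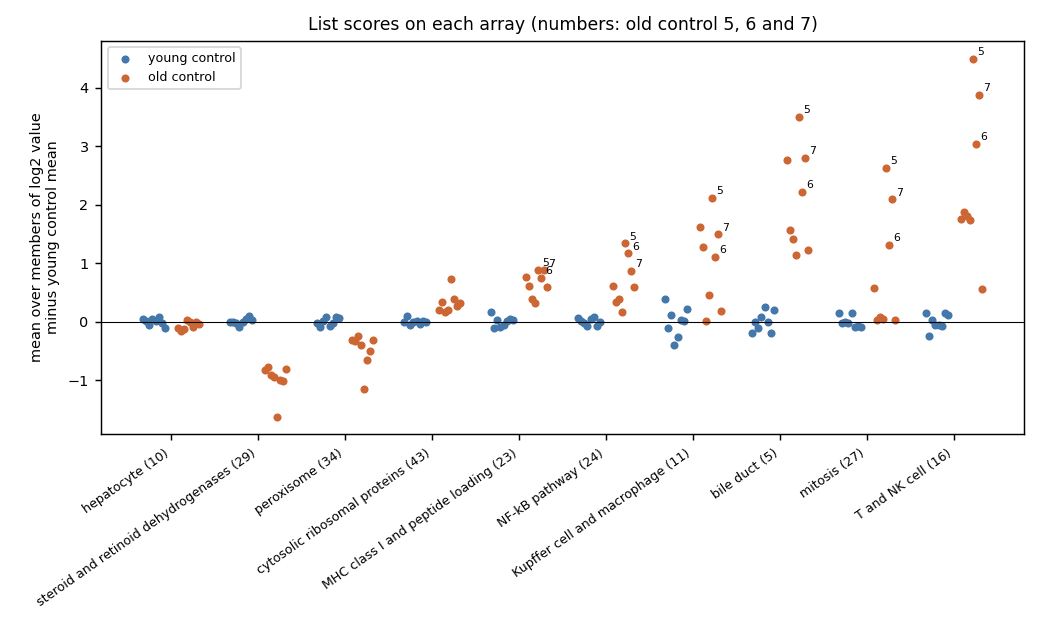
Mean over the tested members of a list of the log2 value minus the young control mean, for each array of 10 lists (members tested in brackets; blue young, orange old). The numbers mark old control 5, 6 and 7 in the 6 lists to the right, where they are the 3 highest old livers for T and NK cell markers (4.50, 3.04 and 3.88) and for mitosis (2.63, 1.31 and 2.09).

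Of 39 lysosomal genes 21 rose and none fell (26 and 1 without old control 5, and 16 and 0 with centred arrays). Npc2, which hands cholesterol out of the lysosome, lay at 12.05 to 12.28 (median 12.22) in young and 12.54 to 13.34 (median 12.81) in old livers and rose by 0.68 ± 0.10 (adjusted p = 0.000239). Gaa, the acid glucosidase, rose by 0.75 ± 0.11 in both of its probe sets. Macrophages hold many lysosomes, and their marker Gpnmb lay at 8.38 to 9.33 (median 8.89) in young and 9.77 to 13.88 (median 11.60) in old livers (2.66 ± 0.42). The part of these cells in the lysosomal counts was not tested. Of 30 autophagy genes 6 fell and 3 rose (7 and 3).

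Epithelial and membrane-binding families were higher. Keratins, claudins and junction genes had 14 of 40 higher and 2 lower (17 and 4 without old control 5). Cldn7, a tight junction protein of bile ducts, was at least 11.6-fold higher, at 6.69 to 8.35 in old against 3.15 to 4.17 in young livers. Gjb2, a gap junction protein that hepatocytes make, lay at 10.87 to 11.37 (median 11.15) in young and 12.04 to 12.82 (median 12.53) in old livers and rose by 1.30 ± 0.11 (adjusted p = 8.31e-07). Krt19, the duct keratin, rose by 1.42 ± 0.48 but stayed called in 9 of the 16 fits that each left out 1 array. Annexins, S100 proteins and galectins rose in 16 of 26 cases and fell in 1 (15 and 1), such as Lgals3bp (2.03 ± 0.26). A joint list held oncofetal genes, which return in damaged or preneoplastic liver, and genes of altered liver foci. Of its 14 tested members 8 rose and none fell, the same without old control 5.

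Growth and matrix lists stood nearer to the background. Of 27 mitosis genes 6 rose and none fell (5 and 0 without old control 5). Their mean level was 2.63, 2.09 and 1.31 in old control 5, 7 and 6, the same 3 livers with the highest T and NK marker levels, and between 0.03 and 0.58 in the other old livers. DNA replication genes had 4 of 30 higher and 1 lower (4 and 3 without old control 5). Of 22 collagens none rose and 1 fell, Col4a5 (-0.71 ± 0.13), and 2 rose and 2 fell without old control 5. Of 21 matrix glycoproteins 2 rose and none fell (3 and 1), among them Dcn (1.21 ± 0.36), which is under the background. The mean of the matrix glycoproteins was 1.89 in old control 5 and at most 0.42 in the other old livers, and that of the stellate cell markers 2.53 and at most 0.90. Of 28 matrix proteases and inhibitors 6 rose and 3 fell (6 and 3), with Timp3, an inhibitor, up by 2.37 ± 0.30.

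The same age comparison in LA-fed animals shares no array with the one above. It called 1631 genes higher (15.4%) and 1062 lower (10%). On that diet the cytosolic ribosomal proteins had 33 of 43 higher and none lower, class I and peptide loading genes 20 of 23 higher, lysosomal genes 22 of 39 higher, complex I 16 of 42 lower, peroxisomal genes 17 of 34 lower and steroid dehydrogenases 13 of 29 lower. Mitochondrial ribosomal proteins had 14 of 73 lower where the control diet had 33, ATP synthase 2 of 16 where it had 8, and cytochrome c oxidase 0 of 11 where it had 4. Periportal genes had 2 of 20 lower on LA and sterol genes 5 of 25 higher. Whether these list counts differ between diets was not tested, and the groups are of unequal size, 6 and 8 on LA.

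**Figure D5:**
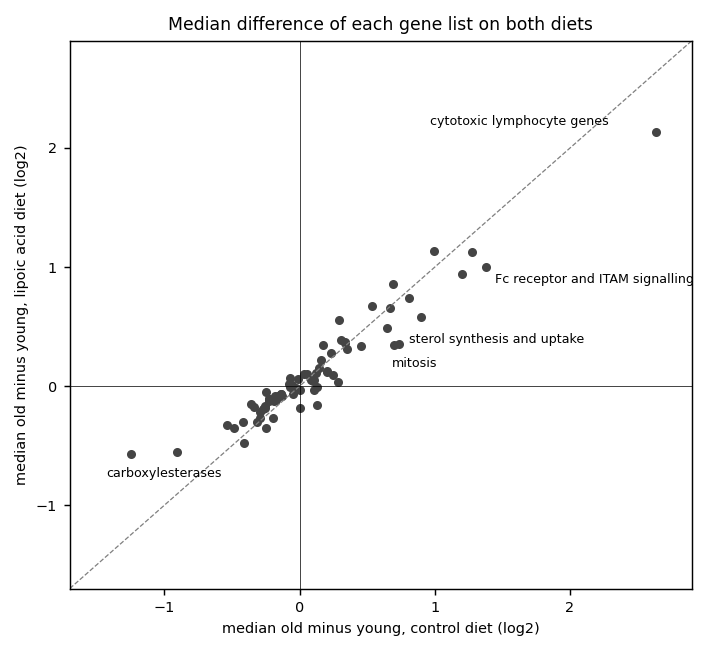
Median old minus young difference in log2 units of each of 74 gene lists on the control diet (horizontal axis) and on the LA diet (vertical axis), with equal values on the dashed line. Cytotoxic lymphocyte genes lie at the upper right, with 2.63 on the control diet.

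Gene by gene, the age difference itself was compared between diets in limma. Over all 10597 genes 2 age differences were higher on LA (0.0189%) and 1 was lower (0.00944%), and without old control 5 there were 5 (0.0472%) and 3 (0.0283%). These genes were chosen after their values were seen. Prlr, the prolactin receptor, differed most: its age difference was 5.20 on the control diet and 9.03 on LA, a difference of 3.83 (adjusted p = 0.0016). Its mean was 7.05 in young control and 3.20 in young LA livers. The latter lies under the floor of 4, so the sizes 9.03 and 3.83 are uncertain. Nampt, of NAD synthesis, had an age difference higher by 1.81 on LA, and Cpt1b, a carnitine palmitoyltransferase, one lower by 2.51. For Nampt the age difference was -0.47 on the control diet and 1.33 on LA. Its means on control and LA were 11.95 and 9.60 in young and 11.48 and 10.93 in old livers. Those of Cpt1b were 5.23 and 8.09 in young and 4.87 and 5.22 in old livers. In both genes the diets lay further apart in young than in old livers. For the lists described above, the members named, Prlr apart, had no age difference that passed this test, which does not show that the diets act alike.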

How the data were processed

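Per the submitters' processing notes, the authors made the expression values with GCRMA, a method that corrects background by probe sequence and summarises each probe set, and deposited them as log2 intensities; its version is not given in the sources used here. Of 31099 probe sets, 20826 had 1 gene in the platform annotation, 436 several, 9780 none, and 57 were controls. Probe sets above a log2 value of 4 on at least 8 of the 16 arrays were kept (19046, of which 14585 had 1 gene), and each of 10597 genes was read from its kept probe set with the highest mean. No normalisation was added. GCRMA pulls dim probe sets towards a floor, so a fold against a group with a mean under 4 is given as at least the fold against 4.

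Groups were compared with limma 3.58.1 in R 4.3.3 (lmFit and eBayes, 14 residual degrees of freedom) and Benjamini-Hochberg adjustment over all genes, and lists were counted in Python 3.11.15 with pandas 2.3.3. On data simulated from these arrays with 100 genes changed by a log2 size of 1 and 100 by 2, this comparison called 90 and 97 of the changed genes. Calls among the unchanged genes are not given, so these counts give no rate of false calls. Far fewer genes were changed there than were called in the measured data (1775 higher and 1345 lower), so the share found there need not hold here. Arrays, not reads, set the precision, through their number. Lists, members and tests were chosen with earlier results of these data known. Named genes were up to 3 called members per direction of each described list with the smallest p, a set of fixed genes and cell markers, and the 10 largest differences in each direction outside lists; a selection of these is printed. Alternatives were centring, no filter, the median of probe sets, replicate number as a block, array weights, a fit of all 30 arrays and each array left out.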

Additional observations from a re-analysis of the deposited data

Results flagged for a closer look

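The groups examined were young and old livers for each gene followed and for a part of the list means described. Of these 298 groups of 8 arrays, 45 held an array far from the other 7 by Dixon's criterion, which chance passes in about 1 of 20 groups. Old control 5 was that array in 31 of them. It was lowest among old livers for Igfbp2 (7.75), Cux2 (6.22), Igfals (8.10), Hsd17b10 (12.76), Hsd17b6 (13.08), Akr1b7 (9.34), Gsta3 (6.60), Mgst3 (10.76), Fmo4 (4.30), Fmo5 (10.14), Cyp2c12 (13.61), Sucla2 (11.40), Cyp2e1 (13.12), Hnf4a (12.48), Cebpa (9.76), Psmb8 (11.88), Trim24 (8.22), Cflar (6.25), Apon (10.78), Ces2c (9.10) and haemoglobin Hbb (7.49). It was highest for Rpl23a (14.88), Rpl5 (14.92), Rps3a (15.40), Cox7a2l (12.20), Pdk4 (13.87) and Dcn (11.62). Its list means stood apart for cytosolic ribosomal proteins (0.73), steroid and retinoid dehydrogenases (-1.62), sterol synthesis (-0.79) and peroxisomal genes (-1.15). The means of stellate cell markers (2.53), matrix glycoproteins (1.89) and carboxylesterases (-5.48) were also extreme on old control 5. They were not among the groups examined, so the counts above leave them out.

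The 5 other old arrays that stood apart were Casp8 in old control 1 (8.67), Hsd3b5 in old control 4 (2.59), Gss in 3 (9.54), Icam1 in 6 (12.52) and Col4a5 in 1 (7.93). The 9 young ones were Akr1b7 (2.82), Cyp2c12 (8.93) and Cyp2e1 (15.32) in young control 5, Pck1 in 8 (14.32), Tef in 7 (9.31), Cd3e (5.63) and Tnfaip3 (6.28) in 6, C5 in 3 (13.03) and Dcn in 1 (7.16).

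The age difference on the LA diet minus that on the control diet passed limma's test of the difference (Benjamini-Hochberg adjusted p = 0.0016 each) for Prlr (3.83, a size limited by the floor), Nampt (1.81) and Cpt1b (-2.51). Without old control 5 all 3 still passed.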

How the results depend on the processing

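Over 23 other settings none of the 135 genes followed reversed its direction while called in either of the 2 fits compared. A change of sign in a gene called in neither fit was not counted, as for Igfals without old control 5. Of the counts of all genes and of lists in a direction at or above 1.5 times the background, 47 values moved by more than 1.5 times and 1176 did not. Of the counts of lists nearer to the background and of cell markers 244 moved and 1412 did not. Leaving out single arrays gave 1424 to 2102 genes higher with age and 1081 to 1596 genes lower with age, and leaving out old control 5 gave 5 higher and 3 lower differences between diets. The lower counts so ranged over 2 to 5 for aldo-keto reductases, 2 to 4 for sulfotransferases, 3 to 7 for organic ion transporters, 6 to 13 for the TCA list, 4 to 7 for glycogen, 7 to 14 for β-oxidation, 14 to 33 for amino acid breakdown and 3 to 13 for periportal genes, and the higher count over 8 to 17 for sterol genes. Centring each array gave 4 sulfotransferases, 10 autophagy, 7 cytochrome c oxidase and 13 TCA genes lower, and 5 serpins and 8 phospholipid and triglyceride genes higher. Array weights gave 5 aldo-keto reductases and 7 organic ion transporters lower and 17 sterol genes higher. Fitting all 30 arrays gave 5 aldo-keto reductases, 4 sulfotransferases, 14 TCA and 29 amino acid genes lower, and 14 immediate-early and 14 sterol genes higher. Leaving out old control 5, 6 and 7 together, an alternative chosen after seeing the data, gave 335 genes higher with age past 2-fold, 6 Toll-like and NOD-like receptor and 18 sterol genes higher, and 5 aldo-keto reductases, 1 sugar transporter, 3 glycogen genes and 4 liver transcription factors lower. The LA-fed age comparison without old LA 2, also chosen after seeing the data, gave 1633 genes higher and 1077 lower. The causes were not tested. Same-numbered young and old arrays deviated together with correlations from -0.01 to 0.29, of which 4 of 8 passed 0.1, and 4 of 8 young arrays were closest to the old array of their own number, a hint of pairing from the data and not the design. Since not every pair passed 0.1 and the labels name nothing that same-numbered animals share, the numbers were not used as pairs. With the replicate number as a block 1799 genes were higher and 1266 lower, with 5 ATP synthase and 5 periportal genes lower. With no floor, 1722 were higher and 1646 lower; values near the floor of the array limit folds of dim genes.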

Other observations

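Further lists moved by member. The apoptosis and BCL2 list had 9 of 28 genes higher and 6 lower (8 and 5 without old control 5), beside 16.8% and 12.7% of all genes. Casp12, an inflammatory-type caspase, rose by 2.02 ± 0.25 and the initiator caspase Casp8 by 0.63 ± 0.08, while Cflar, which restrains Casp8, fell by 0.66 ± 0.13. Of 34 DNA damage repair genes 6 rose and 1 fell (9 and 2), led by Mgmt, which removes alkyl groups from guanine (1.04 ± 0.14). In the TGF-beta and BMP list 6 of 31 rose and 1 fell (5 and 1), the faller being the activin subunit Inhbc (-1.44 ± 0.21). Glycolysis and pentose phosphate genes had 5 of 23 higher and 2 lower (6 and 3), among the latter Pfkfb1, a regulator of phosphofructokinase (-1.86 ± 0.44).

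Of 13 apolipoproteins 2 rose and 3 fell (2 and 4), with Apon at -1.60 ± 0.19. In the carboxylesterase list 1 of 4 rose and none fell with 16 arrays, while 1 rose and 3 fell without old control 5. Its riser Ces2c gained 1.54 ± 0.23, and the list mean on old control 5 was -5.48, where the old median was -0.36. Of 78 chaperones 5 rose and 12 fell (8 and 13), and of 26 coagulation genes 4 rose and 1 fell (4 and 1).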
